A study of Sus scrofa with 8 samples.

Results

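The pseudogenes described here are the gene rows of class pseudogene in the deposited porcine annotation that have no exon row. Of 30364 genes in that annotation, 3012 met this rule. They were all of the genes of class pseudogene and all of the genes without an exon, because every other class, including the 72 transcribed pseudogenes, kept its exons. The 8 that lie in the span of the SLA genes, the major histocompatibility complex of the pig (chr7:22824137-25182665), were left out, and 3004 remained. The study sequenced single cells of airway submucosal glands (SMG) by a 3′ method. Its 8 libraries came from newborn pigs, 4 of them wild-type and 4 CFTR-/-, each library from 1 animal. CFTR is the anion channel whose loss causes cystic fibrosis. Reads of all libraries were assigned to this annotation on Sscrofa11.1. Matrices of counts per cell were not analysed here and the annotation has no column for single animals. The depth per library is therefore unknown, and no value below has a replicate error or a genotype comparison.

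Pseudogenes are gene copies that have lost the ability to make the original protein. A processed pseudogene arises when a spliced mRNA is copied back into the genome, so it lacks introns, may carry a remnant of the poly(A) tail and usually lies far from its parent gene. A duplicated pseudogene arises by copying of genomic DNA, so it tends to keep the exon-intron structure and often lies beside its parent. Cell Ranger assigns a read to a gene through the exons of that gene, and a gene row without exons therefore offers no exon to which a read could be assigned.

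The sequence at former exon junctions showed how these regions compare with a coding gene. INSIG2 encodes an endoplasmic reticulum protein that restrains cholesterol synthesis. In the lines below, lower case is the end of an exon and capitals are the start of the next exon or the bases aligned with it. The first line is the spliced transcript of the coding gene, named INSIG2_1 in the deposited annotation (chr15:23685967-23685981 joined to chr15:23692413-23692427, plus strand, Sscrofa11.1). The second line is the genome at the same exon end, where the intron follows in lower case (chr15:23685967-23685996). The third line is the pseudogene named INSIG2 (chr7:52466988-52467017, minus strand).
INSIG2_1 transcript: gtggcacagcttcagCTGTGATTGGGTTAT
INSIG2_1 gene: gtggcacagcttcaggtatgtgtgggctat
INSIG2 pseudogene: gtggcacagcttcagCTGTGATTGGGTTAT
The pseudogene ran on from exon 2 into the sequence of the next exon with 0 mismatches over 30 bases and with no intron between them. The same was seen for the closest copy of each of the 3 genes with the most copies. RPSA and RPS2 encode proteins of the small ribosomal subunit, and FTL encodes the light chain of ferritin, the iron storage protein. The RPSA copy is LOC100626679 (chr1:236003065-236003094, plus strand), the RPS2 copy is LOC100622811 (chr3:39648370-39648399, plus strand), and the FTL copy is LOC100153870 (chr4:11363064-11363093, plus strand).
RPSA transcript: agagatcctgaagagATTGAAAAGGAAGAG
LOC100626679: agagatcctgaagagATTGAAAAGGAAGAG
RPS2 transcript: tctctgcccatcaagGAATCCGAGATCATT
LOC100622811: tctctgcccatcaggGAATCCGAGATCATT
FTL transcript: acctacctctctctgGGCTTCTATTTCAAC
LOC100153870: gcctacctctctctgGGCTTCTCTTTCAAC
These windows held 0, 1 and 2 mismatches, respectively. For each copy, INSIG2 included, the window shown is the one with the fewest mismatches among its junctions aligned without a gap. Over their best alignments, the copies of RPSA, RPS2 and FTL had identities of 89.7%, 90.4% and 88.6%.

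Stop codons inside the former reading frame are shown next, with the codon in capitals. HSBP1 encodes a small protein that binds heat shock factor 1, SNRPE a core protein of spliceosomal snRNPs, and LOC100157348 an olfactory receptor. The pseudogene HSBP1P (chr14:47695295-47695324, minus strand) had a stop at codon 58 of 77, and the pseudogene SNRPE (chr1:111781966-111781995, minus strand) had a stop at codon 80 of 93. LOC100518791 (chr7:21806093-21806122, plus strand) was an olfactory receptor copy with a stop at codon 123 of 315, and its window differed from the coding gene at 1 base.
HSBP1 transcript: gacctcatgacaCAGgctggggtggaagag
HSBP1P: gacctcatgacaTAGgctggggtggaagag
SNRPE_1 transcript: cggatcatgctaAAAggagataacattact
SNRPE pseudogene: cagattatgctaTAAggagataacattact
LOC100157348 transcript: gcctatgaccgcTATgcagctgtgtgccgc
LOC100518791: gcctatgaccgcTAGgcagctgtgtgccgc
An A-rich stretch at the 3′ end, defined as at least 12 A in 15 bases between 20 bases before and 50 bases after the end of the gene row, was found in 3 of the 7 pseudogenes that carry a gene symbol. Among all 3004 the share was 8.09%, and 6.09% met the same rule for T. The match of SNRPE reached the last base of its source transcript, whereas those of INSIG2 and HSBP1P ended 166 and 1287 bases before it. The 15 bases with the most A are in capitals for SNRPE (chr1:111781761-111781790, minus strand), INSIG2 (chr7:52466393-52466422, minus strand) and HSBP1P (chr14:47694977-47695006, minus strand).
SNRPE pseudogene: tttttattTAAAAAAATTAAAAAtgtgaac
INSIG2 pseudogene: gcactactTTAAAAAAAAAAACAcccagta
HSBP1P: ggcagtttAAAAAAAAAAAAAAAaaaaaaa

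The pseudogenes were short. Their median length was 1387 bp (95% order-statistic interval, 1310 to 1459 bp; interquartile range, 922 to 3577 bp), against 19158 bp for the spans of 20679 protein-coding genes and 12430 bp for 5605 lncRNA genes. The length was closer to that of a spliced transcript of a coding gene, with a median of 2601 bp, or of its coding sequence, with a median of 1221 bp. The 72 transcribed pseudogenes, which kept their exons, had a median span of 1553.5 bp (876 to 3704 bp). Short length was therefore not particular to the pseudogenes without exons. In the RefSeq annotation from which the deposited file was made, 2999 of the 3004 do have exons, 4994 exon rows with 4424278 bases, and every span was the same there. The 1931 pseudogenes with 1 RefSeq exon had a median span of 977 bp. The 1068 with several RefSeq exons had a median span of 4341.5 bp but a median of only 1069.5 exon bases, so the bases assigned to exons were similar in both kinds. Intervals here and below cover counting error only, and genes are not replicates.

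**Figure D1:**
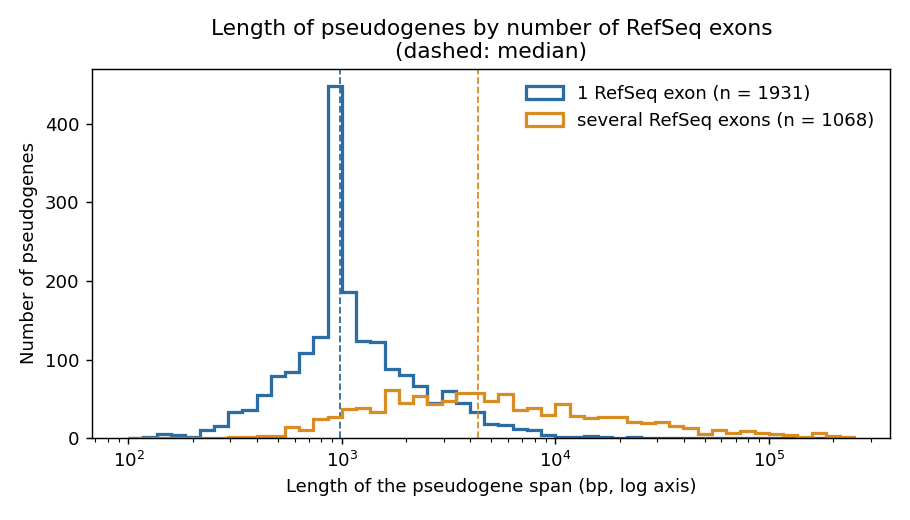
Number of pseudogenes (vertical axis) by length of the gene span in bp (horizontal log axis), for pseudogenes with 1 RefSeq exon (blue, n = 1931) and with several (orange, n = 1068); dashed lines are the medians. The blue distribution peaks near its median of 977 bp, and the orange one is spread over longer spans around 4341.5 bp.

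At the short end, LOC100513953 measured 132 bp and matched TMSB4X, the actin-binding peptide thymosin beta 4, with 92.0% identity. LOC110259257 measured 150 bp and matched TOMM5, a subunit of the mitochondrial import channel, and LOC100521121 measured 156 bp and matched a gene for ribosomal protein L39. The longest was LOC110255358 on chromosome 9, with 218355 bp, of which RefSeq assigns 1957 bases to 3 exons. It matched FAAH2, a fatty acid amide hydrolase, with 93.2% identity over 1489 bases, and exons of coding genes lie within its span. LOC106510108 (198604 bp, chromosome 4) held 2244 exon bases and LOC110259450 (197174 bp, chromosome 1) held 903. The latter matched L1TD1, a gene related to the LINE1 transposon, over 2017 bases. That is more than its exon bases, so part of the match lies outside its RefSeq exons. Of all spans, 208 were under 500 bp and 57 were 50000 bp or more.

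Most of the pseudogenes, 2299, lay on assembled chromosomes at 0.944 per Mb (95% exact Poisson interval, 0.906 to 0.983), and 705 lay on unplaced scaffolds at 10.6 per Mb (9.81 to 11.4). Per Mb of whole chromosome, N bases included, chromosome 2 had the highest density, 1.67 per Mb (1.47 to 1.89), followed by the X chromosome with 1.33 per Mb (1.13 to 1.54). The lowest densities were on chromosome 11, with 0.518 per Mb (0.372 to 0.703), and chromosome 16, with 0.600 per Mb (0.443 to 0.796). The intervals count each pseudogene of a cluster as independent. On chromosome 2, 104 of 254 pseudogenes (40.9%) were olfactory receptor copies. Without them its density was 0.987 per Mb (0.836 to 1.16), against 0.822 per Mb (0.787 to 0.859) for all chromosomes counted the same way. The X chromosome held 0 olfactory receptor copies among its 167, so its value of 1.33 per Mb stayed the same. Per 100 protein-coding genes, the Y chromosome held 60.3 pseudogenes, the X chromosome 21.9 and chromosome 12 only 5.08, compared with 11.8 for the assembled chromosomes together.

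**Figure D2:**
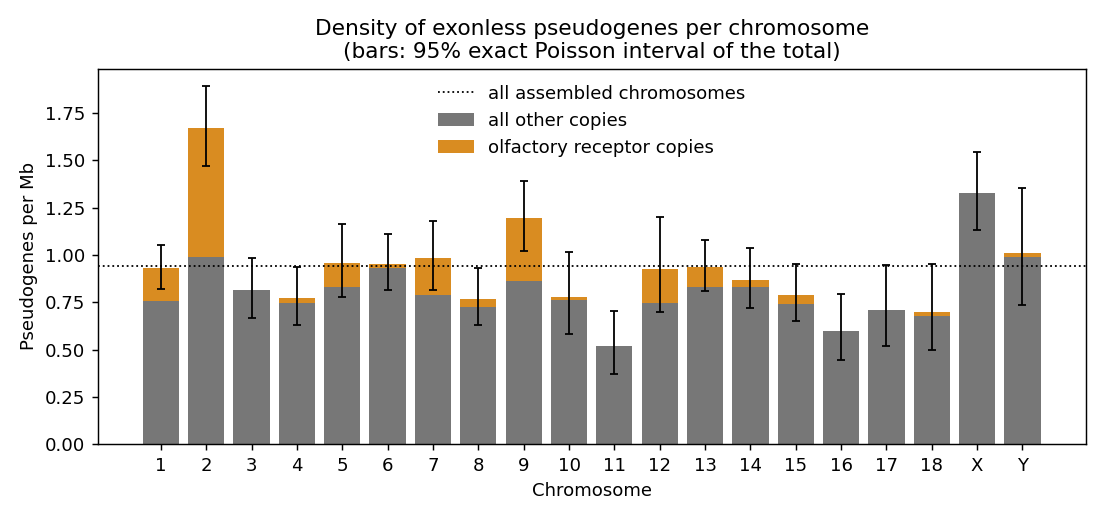
Pseudogenes per Mb (vertical axis) on each assembled chromosome (horizontal axis), split into olfactory receptor copies (orange) and all others (gray); error bars are 95% exact Poisson intervals of the total and the dotted line is the value over all chromosomes, 0.944 per Mb. Chromosomes 2 and X stand highest, and the orange part is large on chromosome 2 and absent on X.

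The Y chromosome held 44 pseudogenes, or 1.01 per Mb (0.734 to 1.36). Much of its sequence is undetermined, and per Mb without N bases the value was 2.83, outside that interval and above the 1.67 of chromosome 2 and the 1.33 of the X chromosome counted the same way. Of the 44, 18 were best matched by genes annotated as heat shock transcription factor, Y-linked-like, a family expressed in testis, and 13 by RPS2. Of the RPS2 copies, 9 lay within 1 window of 1 Mb.

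The pseudogenes were spread unevenly along the chromosomes. Of 2442 windows of 1 Mb, 1195 held none and 762 held 1, whereas 15 windows with 10 or more held 208. The fullest window, on chromosome 1 from 263000001 to 264000000, held 21, of which 12 had an olfactory receptor 1J4-like gene as their best match. In 13 of these 15 windows the most frequent match was an olfactory receptor gene. The others were led by interferon-delta-5, a type I interferon, on chromosome 1 (3 of 11 pseudogenes) and by YARS2, the mitochondrial tyrosyl-tRNA synthetase, on chromosome 14 (4 of 10 pseudogenes).

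Relative to protein-coding genes, most pseudogenes lay between genes. Of 3004, 2282 (76.0%; 95% Clopper-Pearson interval, 74.4 to 77.5%) touched no coding gene span, 643 (21.4%; 19.9 to 22.9%) lay in introns, and 79 (2.63%; 2.09 to 3.27%) met a coding exon. By comparison, coding gene spans made up 45.8% of the genome and their introns 42.4%. Of the 637 intronic pseudogenes whose host genes all lie on 1 strand, 408 were on the opposite strand and 229 (35.9%; 32.2 to 39.8%) on the same strand. The pseudogenes between genes on sequences with a coding gene lay a median of 20411 bp (18912 to 22040 bp) from the nearest, and 78 of them lay within 1000 bp. For lncRNA genes between genes the median distance was 23380.5 bp (21730 to 25183 bp). Their distances were spread more widely, with an interquartile range of 4135 to 85937.5 bp against 8635 to 62599.5 bp for the pseudogenes.

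**Figure D3:**
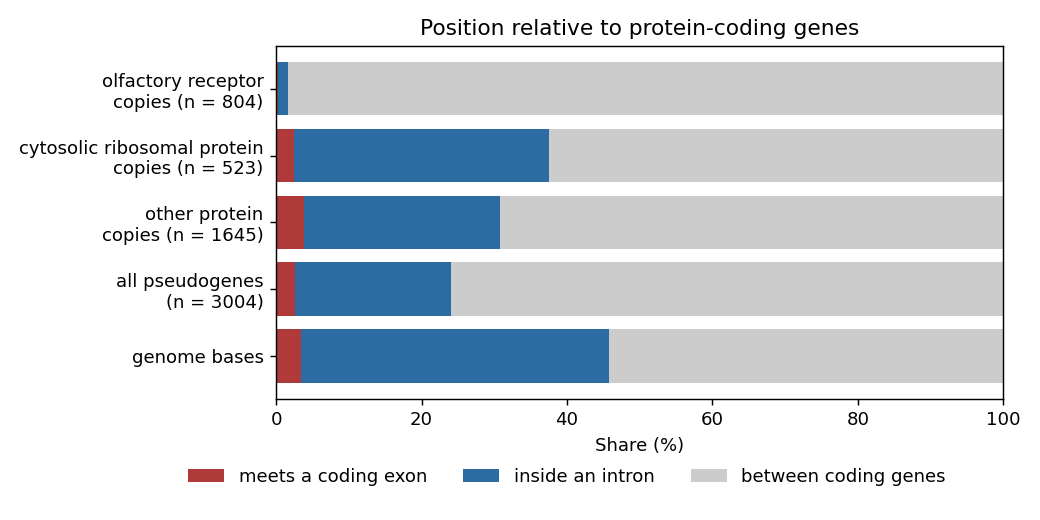
Share (horizontal axis, %) that meets a coding exon (red), lies inside an intron (blue) or lies between coding genes (gray), for pseudogenes grouped by what they copy, for all 3004, and for the bases of the genome. Introns hold 1.37% of the olfactory receptor copies and 35.0% of the ribosomal protein copies, or 2.70% and 35.1% of those on assembled chromosomes.

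The intronic pseudogenes were spread over 603 host genes, and 47 of these held 2 or more. The most in any host was 3, in 4 genes. DMD, the large gene for dystrophin (2622506 bp on the X chromosome), held copies of NECAP1, an endocytosis protein, TAF13, a subunit of the general transcription factor TFIID, and SUMO2, a ubiquitin-like modifier, all on the opposite strand. ZNF397, a zinc finger gene on chromosome 6, held copies of RPL21, of the ATP synthase gene ATP5H and of CUNH14orf2. The other hosts with 3 were LOC100515441 and LOC110258970.

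RefSeq exons of 26 pseudogenes shared bases with exons of 26 coding genes on the same strand, 10256 bases in total. The largest was LOC110261382 on chromosome 6 (chr6:61711637-61715714), all of whose 3461 exon bases lie in exons of LOC110261317. LOC407246 on chromosome 2 (chr2:12988754-12990035) came next. It shared 1280 of its 1282 bases with the gene that the deposited annotation calls LDHB, which has 1 exon of 1280 bp at chr2:12988754-12990033. LDHB is a subunit of lactate dehydrogenase. A gene of 8 exons named LDHB_1 lies at chr5:51810932-51831218. LOC407246 matched its spliced transcript with 99.1% identity, crossed 7 of 7 exon junctions without an intron and had neither a frameshift nor an internal stop. In LOC100737946 on chromosome 8, all 1110 exon bases lie in exons of LOC110255270. Counted on either strand, 62 pseudogenes shared exon bases with coding genes.

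To find what each pseudogene is a copy of, its sequence was compared with 1 spliced transcript per coding gene, leaving out genes at its own place. A match of at least 100 bases with at least 70% identity was found for 2972 of 3004 (98.9%; 98.5 to 99.3%), with a median identity of 86.4%. RefSeq states similarity to proteins for 2985 of 2999 of these models, so a high share of matches was to be foreseen. The matches named 1469 coding genes, or 7.11% of all, and 118 of these had 5 or more copies and accounted for 997 pseudogenes. For the pseudogenes with several RefSeq exons, these exons were also used as the query in place of the whole span, and the same gene was named for 866 of 1034 (83.8%; 81.4 to 86.0%). With 1 exon the query is the same.

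Olfactory receptor genes, which encode odorant receptors of the nasal epithelium, were matched by 804 pseudogenes (27.1% of those matched). Such genes make up 8.12% of the coding genes. The copies had a median length of 993 bp and 633 (78.7%) had 1 RefSeq exon. Of the 804, 508 (63.2%) lay on unplaced scaffolds, 11 (1.37%) lay in introns, and 791 lay between coding genes. Of the 804, 675 matched a coding gene of 1 exon, and 752 had no junction in the matched stretch. Of the remaining 52, 46 crossed all junctions and 4 crossed none. Their median identity was 92.2% (interquartile range, 85.6 to 97.2%), and 383 (47.6%) held an identical run of 100 bases or more with the coding gene.

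Genes for cytosolic ribosomal proteins, 0.590% of the coding genes, were matched by 523 pseudogenes (17.6%). Their copies of 83 genes were spread over the genome. Of the 523, 7 lay on unplaced scaffolds, 477 had their source gene on another chromosome and 183 (35.0%; 30.9 to 39.2%) lay in introns. Of 503 with a junction in the matched stretch, 485 crossed all junctions and 0 crossed none. Their median identity was 85.3% (80.9 to 88.8%), the highest was 95.7%, and 4 held an identical run of 100 bases or more. The remaining 1645 matched 984 other genes with a median identity of 85.0%, and 170 of these (10.3%) held such a run.

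**Figure D4:**
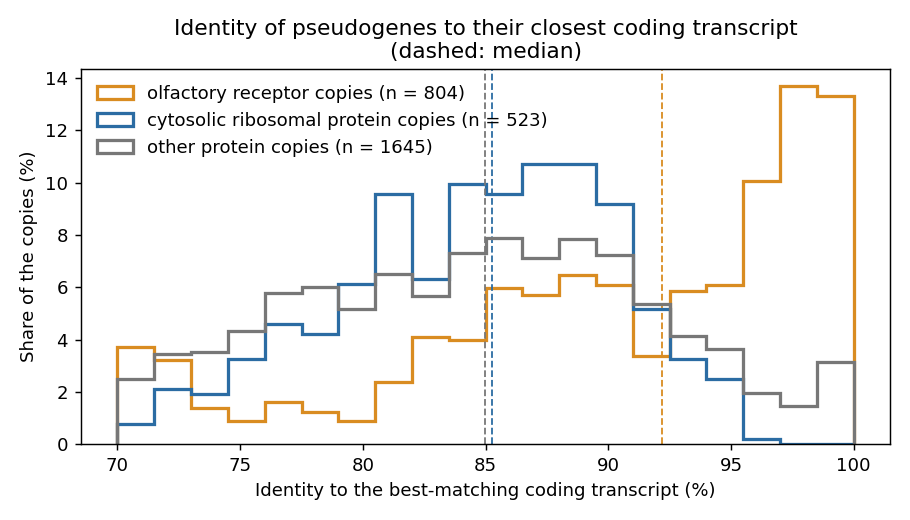
Share of the copies (vertical axis, %) by identity to the best-matching coding transcript (horizontal axis, %), for copies of olfactory receptor genes (orange, n = 804), cytosolic ribosomal protein genes (blue, n = 523) and other genes (gray, n = 1645); dashed lines are the medians. The orange curve peaks above 95% identity with a median of 92.2%, and the other medians are 85.3% and 85.0%.

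RPSA had the most copies, 24, on 15 chromosomes. Their identity ranged from 70.3 to 89.7%, 21 crossed every junction in the stretch, and all 24 had a frameshift or stop. RPS2 had 23 copies with identities from 74.1 to 90.4%, and all 23 crossed every junction. Of these, 13 lay on the Y chromosome, and several of the 13 had the same length and identity, so the 23 are not independent. FTL had 22 copies with identities from 71.9 to 88.6%, all of which crossed every junction and 21 of which had a frameshift or stop. Other families, grouped by product name after their values had been seen, had fewer copies. Genes of the ubiquitin system, 1.11% of the coding genes, were matched by 58 (1.95% of those matched), genes of the respiratory chain and ATP synthase, 0.314% of the coding genes, by 48 (1.62%), and translation factors, 0.909%, by 47 (1.58%). Zinc finger genes, 3.26% of the coding genes, were matched by 30 (1.01%). Of the 21 zinc finger copies with a junction in the stretch, 12 crossed all junctions and 6 crossed none. Heterogeneous nuclear ribonucleoproteins were matched by 26 and high mobility group proteins, which bind chromatin, by 23. All 23 of the last group crossed every junction. In contrast, of the 18 copies of heat shock transcription factor, Y-linked-like genes, the 16 with a junction in the stretch crossed none, and their median identity was 97.3%.

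Exon junctions were crossed without an intron in most copies whose matched stretch held a junction. Of 1959 pseudogenes whose matched stretch held at least 1 junction with 20 bases on both sides, 1700 (86.8%; 85.2 to 88.2%) crossed all junctions, 188 crossed some and 71 (3.62%) crossed none. Alignments under 100 bases or under 70% identity were not used. A copy that kept its introns therefore counted only where separate exons each passed these limits. Such copies with short or diverged exons could be missed, so the shares and the identities of these classes depend on this rule. The place of the source gene differed between these classes. Where both lay on assembled chromosomes, the source was on another chromosome for 1428 of 1530 pseudogenes that crossed all junctions (93.3%; 92.0 to 94.5%) and for 7 of 46 that crossed none (15.2%; 6.34 to 28.9%). The source lay within 1 Mb for 15 of the 1530 (0.980%; 0.550 to 1.61%) and for 26 of the 46 (56.5%; 41.1 to 71.1%). The intervals of both shares were apart, but they count each copy of a family as independent. Of the 71 that crossed none, 16 were copies of heat shock transcription factor, Y-linked-like genes. Of all 18 copies of this family, each on the Y chromosome, 0 had their source on another chromosome and 7 had it within 1 Mb. Median identity was 85.4% in pseudogenes that crossed all junctions and 96.3% in those that crossed none, whose median span was 5238 bp against 1438 bp.

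**Figure D5:**
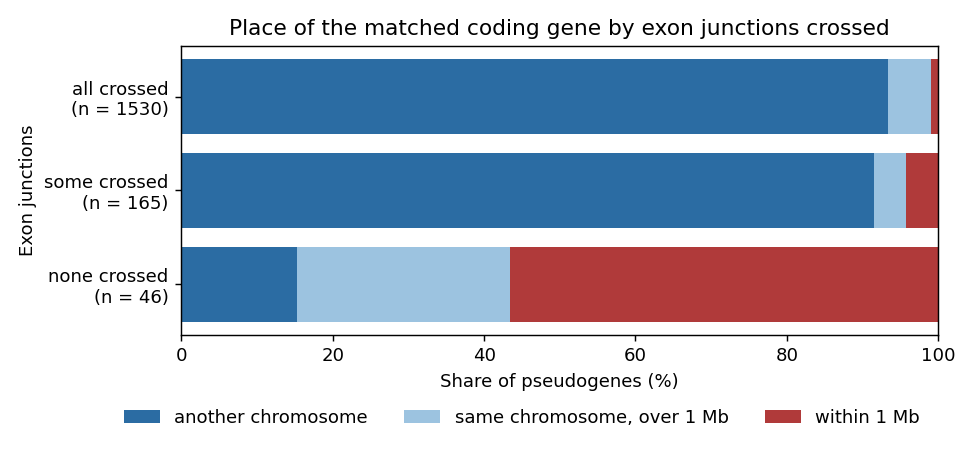
Share of pseudogenes (horizontal axis, %) whose matched coding gene lies on another chromosome (dark blue), on the same chromosome but over 1 Mb away (light blue) or within 1 Mb (red), for pseudogenes that crossed all (n = 1530), some (n = 165) or none (n = 46) of the exon junctions in the stretch. Another chromosome holds the source of 93.3% of the first class and 15.2% of the last.

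Changes that break the reading frame were frequent. The pseudogenes were chosen by their class in the annotation, and such changes can be a reason for that class. The shares below are therefore no independent result. Of 2855 pseudogenes with at least 100 aligned coding bases of a source gene with a complete frame, 2685 (94.0%; 93.1 to 94.9%) had a frameshift or an internal stop, 2541 (89.0%) a frameshift and 1783 (62.5%) a stop. The share was 96.4% in olfactory receptor copies, 94.2% in ribosomal protein copies and 92.8% in the others. An internal stop was present in 45.1% of olfactory receptor copies and in 71.1% of ribosomal protein copies.

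An A-rich stretch at the 3′ end was present in 243 of 3004 pseudogenes (8.09%; 7.14 to 9.12%), and the same rule for T, a control for base composition, was met by 6.09%. At the ends of protein-coding genes 1113 of 20661 coding genes (5.39%) met the rule for A and 1446 that for T. Among pseudogenes that crossed all junctions, 189 of 1700 had an A-rich stretch (interval of the share, 9.66 to 12.7%) and 110 (6.47%) a T-rich one. In a split made after these values had been seen, the 687 of them whose match came within 50 bases of the 3′ end of the source transcript had an A-rich stretch in 21.5% (18.5 to 24.8%) and a T-rich stretch in 5.68%. In the other 1013 the shares were 4.05% (2.92 to 5.45%) and 7.01%.

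RefSeq states evidence for these models. Similarity to proteins was given for 2985 of 2999, and coverage by RNA-seq reads for 2154 (71.8%; 70.2 to 73.4%), with a median of 81% of the feature. The median was 87% for pseudogenes with 1 exon and 62% for those with several. Coverage was stated for 80.7% of ribosomal protein copies and 52.1% of olfactory receptor copies. Those reads come from the samples used for the RefSeq annotation and not from the SMG libraries, and reads of a near-identical coding gene cannot be told apart from those of its copy.

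Only 7 of the 3004 pseudogenes had a gene symbol, and 2992 came from the automated Gnomon prediction. In 2 cases, SNRPE and INSIG2, the pseudogene had the plain symbol and a coding gene had the symbol with a suffix. SNRPE names a pseudogene of 466 bp (chr1:111781784-111782249, minus strand) between coding genes, whereas the coding gene at chr9:64560544-64567007 is SNRPE_1. The pseudogene matched the SNRPE_1 transcript from base 9 to its last base, 462, with 78.4% identity, crossed 4 of 4 junctions and had 4 frameshifts and 1 stop. INSIG2 names a pseudogene of 982 bp (chr7:52466406-52467387, minus strand) in an intron of PDE8A, a cyclic nucleotide phosphodiesterase gene, on the same strand. It matched INSIG2_1, the coding gene at chr15:23676684-23699591, with 94.4% identity over 871 bases and crossed 4 of 4 junctions. For NDUFA4, a subunit of the respiratory chain, the coding gene on chromosome 9 kept the plain symbol. The pseudogene NDUFA4_1 (chr13:30448569-30449050, plus strand, 482 bp) lies in an intron of SMARCC1, a chromatin remodeling gene, on the opposite strand. It matched with 89.3% identity over 261 bases and crossed 2 of 2 junctions.

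HSBP1P (chr14:47695002-47695436, minus strand, 435 bp) lies in an intron of OSBP2, an oxysterol-binding protein gene, on the opposite strand. It matched HSBP1 with 93.2% identity and crossed 2 of 2 junctions. HSBP1P2 (chr5:28081542-28081772, plus strand, 231 bp) matched the whole coding sequence of HSBP1 with 93.1% identity, crossed 2 of 2 junctions and had 0 frameshifts and 0 internal stops. SAA1P, a copy of serum amyloid A, an acute phase protein, lies at chr2:40961342-40962170 (minus strand, 829 bp). It lies 10626 bp from SAA2 and matched it with 100% identity over 289 bases. It crossed 0 of the 1 junction in its matched stretch. NR4A1 encodes an orphan nuclear receptor, and its row (chr5:17403088-17407918, plus strand, 4831 bp) is of class pseudogene. No other gene row carries that symbol, and the best coding match was NR4A2, a related receptor gene, with 78.8% identity over 132 bases. Of the 2 junctions in its matched stretch it crossed 0. HSBP1P2, SAA1P and NR4A1 are among the 5 pseudogenes that have no exon in RefSeq either. Like HSBP1P2, the pseudogenes NDUFA4_1, SAA1P and NR4A1 had 0 frameshifts and 0 internal stops in their best alignments. Their alignments covered only 54.7%, 77.8% and 16.6% of the coding sequence of the source, respectively.

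Of 18 genes for host defense and secreted proteins and 8 cell type markers listed for SMG, 0 were the source of a pseudogene, against 7.11% of all coding genes. Lists this short would hold few such genes at that share, so the 0 shows no lack of copies. Of the 2972 matched pseudogenes, 557 (18.7%; 17.4 to 20.2%) held an identical run of at least 100 bases with their source, and they named 397 source genes.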

How the data were processed

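The deposited gene annotation gives coordinates on Sscrofa11.1, counted from 1, as its only values. The authors made it by editing the NCBI RefSeq annotation of the pig, mainly at 3′ UTRs and gene names, and used it as the reference of Cell Ranger (3.0.2 according to the notes on processing by the submitters). The rows were read in Python 3.11.15 and compared with the RefSeq annotation and genome of the same build. Gene rows of class pseudogene without an exon row were kept, except those that overlapped the SLA span on chromosome 7, from the first to the last gene with an SLA symbol. A pseudogene was placed in an exon when its span met an exon of a protein-coding gene, in an intron when it met only introns, and between genes otherwise.

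Spans, on their own strand, were compared by blastn 2.17.0 (E value at most 1e-05, repeat-masked bases not used as seeds) with the spliced transcript of the longest coding sequence of each coding gene. The source was the gene with the highest bit score, and families were read from its RefSeq product name. Frameshifts and stops were counted in that best alignment, whereas coverage of the coding sequence was counted over all alignments to the source. Sequences were read with pysam 0.24.0 and are RefSeq Sscrofa11.1. Shares carry Clopper-Pearson, densities exact Poisson and medians order-statistic 95% intervals (scipy 1.17.1). The steps were tested on simulated copies made at a single rate of base changes, which do not cover the more diverged pseudogenes.

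Named were the pseudogenes with a symbol, the 3 longest and shortest, hosts, sources and shared exons ranked highest (4 tied hosts), the 2 chromosomes with the highest and lowest density, and copies of listed genes, of which a list of ion and liquid transport genes is not reported here. Others, such as the Y chromosome, olfactory receptor and other families, and the sequences shown for LOC100518791, were added to these once values were known. The members and gene lists were chosen with earlier results of these data known. Alternatives changed the SLA span, biotype, length measure, hosts, strand, match thresholds, junction margin and A-rich rule.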

Additional observations from a re-analysis of the deposited data

How the results depend on the processing

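No paired analysis was possible because 1 annotation served all animals and gives none of them a value of its own. The number of pseudogenes moved only between 3001 and 3012 with the SLA span widened or kept in. Allowing other pseudogene classes could not change the number, because all genes of those classes have exons. The median length was 1006 bp by RefSeq exon bases and 1569 bp on assembled chromosomes only. The share that met a coding gene span, 24.0%, became 22.4% for spans wholly inside, 26.7% with lncRNA genes as hosts and 8.82% on the same strand only. The number that shared coding exon bases rose from 26 to 62 on either strand. The share with a source transcript, 98.9%, became 80.9% and 36.0% at identities of at least 80% and 90%, 97.3% with at least 200 aligned bases and 98.3% with the coding sequence only. The share that crossed all junctions, 86.8%, became 79.1% at an identity of at least 90%, 91.8% with at least 200 aligned bases, 88.4% with the coding sequence only, and 88.9% and 84.1% with 10 and 40 bases on both sides. The A-rich share, 8.09%, became 22.3% with 10 A of 15 bases (T, 16.8%) and 12.5% with 100 bases after the end (T, 8.69%). Chosen after seeing the data, RefSeq exons as the query gave a source for 98.2%, and repeat masking off gave a source for 99.2% and all junctions crossed in 86.5%. The density per Mb without N bases, 0.956, stayed in its interval. Why values moved was not tested beyond what each rule itself changes.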

Other observations

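In a small set of the pseudogenes the best alignment showed no break of the reading frame. Of 170 with neither a frameshift nor an internal stop in that alignment, 115 covered at least 95% of the coding sequence of their source. This coverage counts all alignments to the source together, so breaks in or between the other alignments were not seen. Start codons were not checked. Of these 115, 84 had 1 RefSeq exon, 87 crossed all junctions, 20 were olfactory receptor copies and 23 were ribosomal protein copies. RPL39, a small protein of the large ribosomal subunit, was the source of 7. CYCS, the electron carrier cytochrome c, and GLRX, the thiol reductase glutaredoxin, were the source of 6 each. For 58 of the 115, RefSeq stated RNA-seq coverage of at least 90%. Examples, chosen after their values were seen, were LOC100155098 on the X chromosome (555 bp), which matched SNU13, a spliceosome protein, with 98.7% identity and crossed 2 of 2 junctions, and LOC100522989 on chromosome 3 (737 bp, in an intron), which matched PFDN1, a subunit of the chaperone prefoldin, with 98.7% identity and crossed 3 of 3. RefSeq stated coverage of 100% for each. LOC110260429 on chromosome 4, inside an intron, matched HENMT1, an RNA methyltransferase gene, with 99.1% identity over 1456 bases and crossed 7 of 7 junctions.

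LOC110260282, a gene annotated as tigger transposable element-derived protein 1-like, was the best match of 21 pseudogenes at a median identity of 74.2%, and 0 of these crossed a junction because its transcript has 1 exon. REL, a transcription factor of the NF-kappa-B family, was the best match of 10, of which 4 were on the Y chromosome. These 10 had a median span of 72831 bp and a median identity of 75.5%, and 0 of them crossed all junctions of a matched stretch. Whether they are copies of REL was not tested. No source was found for 32 pseudogenes, of which 16 had several RefSeq exons and 8 had a stated RNA-seq coverage of at least 90%.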
